A study of Mus musculus with 8 samples.

Results

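Experiment 1 of this series compared bone marrow derived macrophages (BMDMs) of Mkl1 knockout (KO) and wild type (WT) mice by bulk RNA-seq. It held 4 of the 8 libraries of the series, WT libraries 1 and 2 and KO libraries 5 and 6. These are the libraries whose counts were deposited as experiment 1. The submitters' design text says that genotypes were compared within each batch, and the batches are taken here to be the 2 experiments. WT mice were Mkl1+/+, Apoe-/- and KO mice were Mkl1-/-, Apoe-/-, all of them males on a C57BL/6J background aged 6 months. The knockout was global by design and not limited to macrophages. All mice of both genotypes lacked Apoe and were infused with angiotensin II (Ang II) at 1.44 mg/kg/day by osmotic minipump for 7 days, and no library came from mice without Ang II. Marrow cells were then differentiated to macrophages for 7 days in culture before RNA was taken. The question was how the loss of Mkl1 changed the transcriptome of these macrophages. With 2 libraries against 2, 6 arrangements exist and an exact permutation test cannot go below p = 0.33, so p-values here come from edgeR's quasi-likelihood fit across all genes, except where DESeq2 or limma-voom is named. The labels do not say whether the libraries of a group came from separate mice, so these p-values measure the spread between these libraries, which may be technical.

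Mkl1, also called Mrtfa or MRTF-A, is a coactivator of serum response factor (SRF). It is held in the cytoplasm by monomeric actin and moves to the nucleus when actin polymerises, where it switches on genes of the actin cytoskeleton, of contraction and of the extracellular matrix. Macrophages grown from marrow carry sensors for microbial products that act through NF-kB and through type I interferon, and interferon gamma raises their MHC class II and guanylate binding proteins. A culture of marrow cells can also hold stromal cells, which make collagens and contractile proteins.

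Between 33977799 and 41584540 reads were counted per library in experiment 1, on 53735 listed genes, of which 14976 passed the filter on low counts and were tested. Replicate libraries differed by more than counting noise. The standard deviation of the log2 difference over genes was 0.371 between WT libraries 1 and 2 and 0.338 between KO libraries 5 and 6, against 1.08 between the WT and KO means. The WT libraries of experiment 1 were close to the KO libraries of experiment 2, with a standard deviation of 0.407 between the group means, and further from the WT libraries of experiment 2, at 0.841. The KO libraries of experiment 1 were close to neither group of experiment 2, at 1.09 from WT and 1.02 from KO. Whether cells or labels were exchanged between the batches was not tested, and such an exchange would change what every KO over WT value below stands for. All 4 libraries held transcripts of Y-linked genes and Xist was near 0. Macrophage markers were high in all 4 libraries, with the lysosomal marker Cd68 between 812 and 1436 CPM (reads scaled to a common library size) and Csf1r between 1233 and 2511 CPM. Apoe, deleted in every mouse, had 8.38 and 6.31 CPM in WT and 22.4 and 16.5 CPM in KO.

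Mkl1, the targeted gene (chr15:81012281-81190757 on the minus strand of GRCm38, listed as Mrtfa in GENCODE M21), was lower in KO but was not absent. It had 25.7 and 27.1 CPM in WT and 19.3 and 20.7 CPM in KO. Both KO libraries lay below both WT libraries, with a log2 fold change of -0.41 (SE 0.08, adjusted p = 0.00286), and the call was lost when all 8 libraries shared 1 estimate of spread (adjusted p = 0.0669). In experiment 2 the log2 fold change of Mkl1 was -1.16 (adjusted p = 0.0228). The difference of the effects passed the test (adjusted p = 0.0245). Counts per gene do not show which part of Mkl1 was read, so the deletion itself was not tested. Mkl2, the closest relative of Mkl1, rose from 43.9 and 48.0 CPM to 67.8 and 68.8 CPM (log2 fold change 0.56, SE 0.07, adjusted p = 0.000223). A pair of genes marked the KO label more sharply. Rpl3-ps1, a ribosomal protein pseudogene, had 0.247 and 0.0294 CPM in WT against 25.2 and 24.5 CPM in KO, and Kif21a, a kinesin, had 0.148 and 0.352 CPM against 7.04 and 6.11 CPM. Both were also high in KO and near 0 in WT of experiment 2. These 2 genes were chosen after their values were seen, and the libraries labelled KO thus carried the same mark in both experiments. Rpl3, the parent gene of the pseudogene, did not follow the label in both. It was lower in KO of experiment 1 (log2 fold change -0.50, SE 0.07, adjusted p = 0.000344) and at 0.13 in experiment 2 (adjusted p = 0.564), and the difference passed the test (adjusted p = 0.0153).

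Loss of Mkl1 went with a broad change of the transcriptome in experiment 1. Of the genes tested, 4248 were lower in KO (28.4% of all tested) and 4225 were higher (28.2%) at an adjusted p under 0.05. Most changes were small, with a median absolute log2 fold change of 0.66 among the genes called. At 2-fold or more, 881 genes were lower (5.88%) and 1832 were higher (12.2%), and at 4-fold or more, 277 were lower and 857 were higher. The median log2 fold change of all genes tested was 0.02. Upper-quartile scaling moved it to 0.13 and gave 61.8% of the calls as higher, against 49.9% with the scaling used here. Any share below is to be read against these backgrounds, of 28.4% lower and 28.2% higher.

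**Figure D1:**
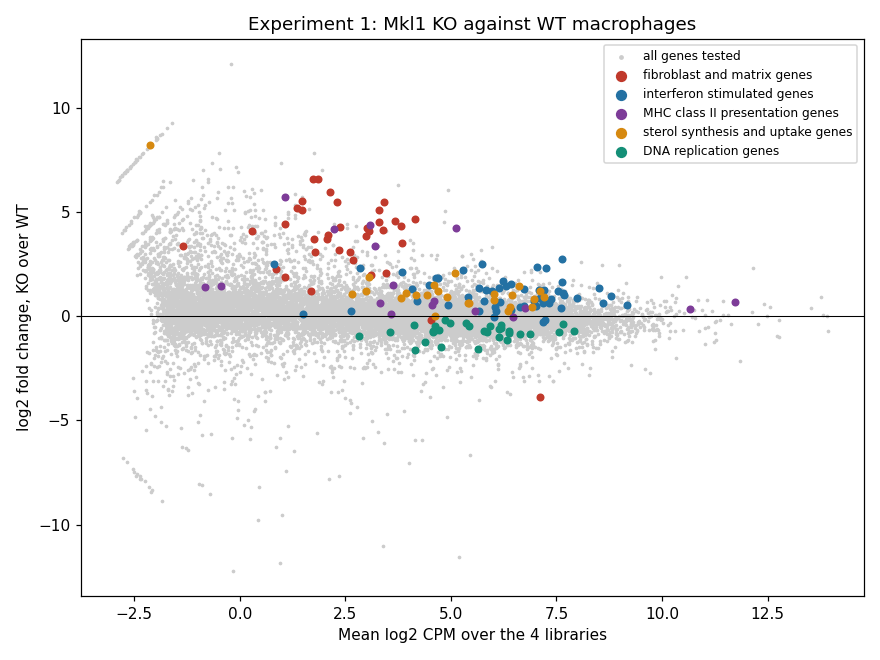
Each point is 1 of the 14976 genes tested, with its mean log2 CPM over the 4 libraries of experiment 1 on the horizontal axis and its log2 fold change, KO over WT, on the vertical axis. Fibroblast and matrix genes (red) lie mostly at low levels and high fold changes, interferon stimulated genes (blue) lie mostly above 0 at medium levels, and DNA replication genes (green) lie below 0. The fold changes of genes near 0 counts in 1 genotype are fitted values with a prior count.

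Among genes whose mean log2 CPM was 3 or more, the largest fall was in Slc13a3, a transporter of sodium and dicarboxylates. It had 1599 and 2236 CPM in WT against 0.696 and 0.594 CPM in KO (log2 fold change -11.55, SE 0.30, adjusted p = 9.31e-06). Fpr1, the receptor for formylated bacterial peptides, had 498 and 377 CPM in WT and 0.214 and 0.198 CPM in KO (log2 fold change -11.04, SE 0.26, adjusted p = 4.26e-06). The WT and KO libraries were orders of magnitude apart in both genes, and the replicates lay close together. In experiment 2 both genes were at higher levels in KO, and of these the change of Slc13a3 passed the test (adjusted p = 0.00671) and that of Fpr1 did not (0.0673). There Slc13a3 had 14.8 and 10.2 CPM in WT and 969 and 2148 CPM in KO, and Fpr1 had 48.9 and 10.3 CPM in WT and 191 and 190.0 CPM in KO. The levels of Slc13a3 in KO of experiment 2 thus lay near those in WT of experiment 1.

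Other large decreases were spread over several kinds of protein. Cd55, a brake on complement, had 148.3 and 221 CPM in WT and 1.58 and 1.21 CPM in KO (log2 fold change -7.06, SE 0.36, adjusted p = 0.000597). Without KO library 5 or 6 its adjusted p was 0.0508 or 0.0675. Siglece, an inhibitory receptor for sialic acids, fell by 6.07 on the log2 scale (adjusted p = 6.91e-08), Saa3, an acute phase protein, by 5.94, and Itgal, the alpha chain of the integrin LFA-1, by 4.84. The receptor phosphatase Ptprm and Ceacam19 fell by 5.54 and 5.04 on the same scale. These genes were ranked only among called genes whose KO and WT libraries of experiment 1 did not overlap. That gap is thus a rule of choice and no result. Over all genes tested, both KO libraries lay above both WT libraries in 42.1% and below them in 38.6%, so such a gap alone sets no gene apart.

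Among genes whose mean log2 CPM was 3 or more, the 10 largest increases included a chemokine receptor of monocytes and several matrix genes. Ccr2, which brings monocytes out of the marrow, had 1.33 and 1.64 CPM in WT and 133 and 105 CPM in KO (log2 fold change 6.32, SE 0.18, adjusted p = 5.61e-06). Ly6a, known as Sca-1 and induced by interferon, had 2.66 and 5.02 CPM in WT and 222 and 292 CPM in KO (log2 fold change 6.08, SE 0.36, adjusted p = 0.00114). Thbs1, the matrix glycoprotein thrombospondin 1, had 5.45 and 4.67 CPM against 148.3 and 190 CPM (log2 fold change 5.05, SE 0.17, adjusted p = 1.09e-05). Each was at least an order of magnitude higher in both KO libraries than in either WT library. Scd1, which makes monounsaturated fatty acids, rose by 4.54 on the log2 scale, and the others of these 10 were Col6a1, Sparc, Col1a2, Col5a2, Col12a1 and H2-Aa.

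Among the most abundant genes that changed 2-fold or more, the macrophage markers moved in both directions. Adgre1, which encodes the F4/80 antigen, had 8351 and 7108 CPM in WT and 1908 and 1652 CPM in KO (log2 fold change -2.13, SE 0.11, adjusted p = 5.63e-06). Cd36, a scavenger receptor for oxidised lipids, fell by 2.00 on the log2 scale, Lpl, lipoprotein lipase, by 1.23, and Tmsb4x, which binds actin monomers, by 1.16. Spp1, osteopontin, had 2014 and 2078 CPM in WT and 9298 and 11295 CPM in KO (log2 fold change 2.32, SE 0.11, adjusted p = 2.51e-06). Sepp1, a selenium carrier, rose by 1.91 on the log2 scale, Mrc1, the mannose receptor, by 1.89, and the complement chains C1qb and C1qc by 1.45 and 1.03.

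Of 25 macrophage identity genes tested, 13 were higher and 8 were lower, with a median log2 fold change of 0.51. Csf1r, the receptor for the growth factor of macrophages, and Cd68 were among those that rose (log2 fold changes 0.80 and 0.72), as did Mertk, a receptor for dying cells (1.62). Itgam, the CD11b integrin, fell by 1.05. Marco, a scavenger receptor for bacteria, had 60.7 and 58.2 CPM in WT, and in KO libraries 5 and 6 it had 0 and 1 read (adjusted p = 7.05e-08). Pan-macrophage markers were thus present at high levels in both genotypes, while single markers moved by large amounts. In bulk RNA, fewer cells of a type and less RNA per cell cannot be told apart.

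**Figure D2:**
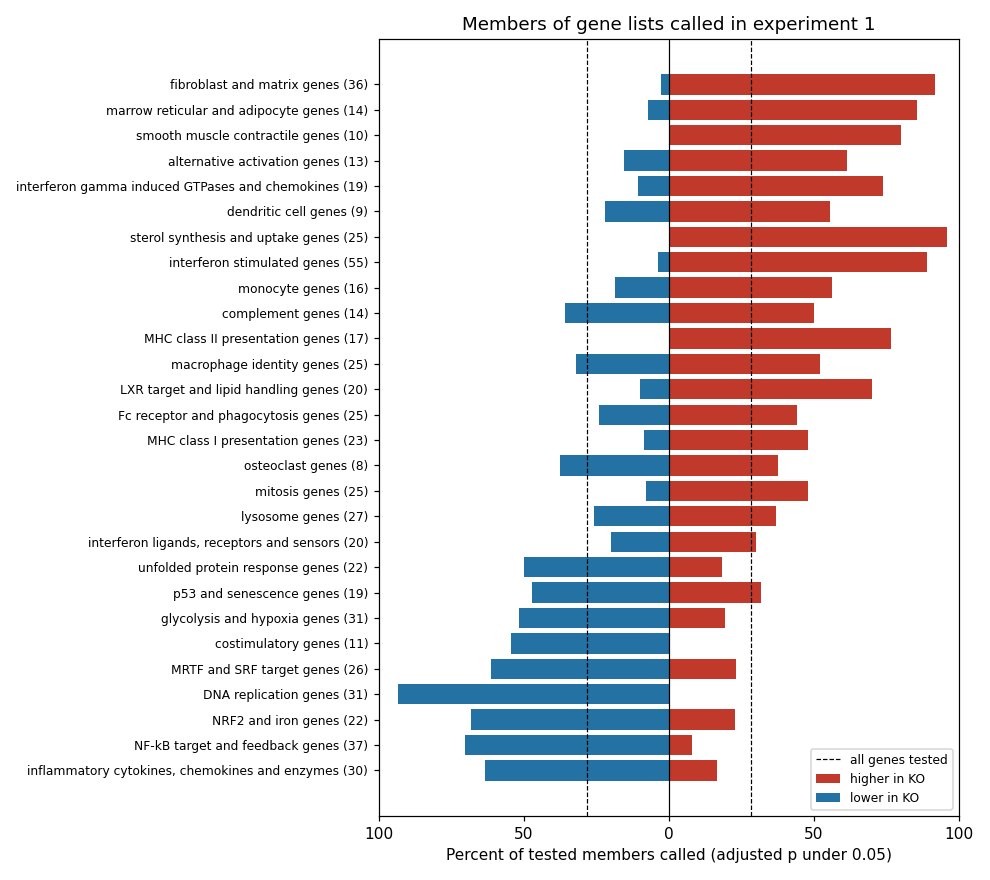
Bars give the percent of the tested members of each gene list that were called higher (red, right) or lower (blue, left) in KO of experiment 1, with the number of members tested in parentheses. Dashed lines mark the shares over all genes tested, 28.2% higher and 28.4% lower. Lists with at least 8 tested members are shown, in order of their median log2 fold change. Sterol, fibroblast and interferon genes are among the lists with most members higher, and DNA replication genes have the largest share lower.

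Stromal genes were higher in KO of experiment 1. Of 36 fibroblast and matrix genes tested, 33 were higher and 1 was lower, with a median log2 fold change of 4.08. Col1a1, the alpha 1 chain of type I collagen, had 0.296 and 0.499 CPM in WT and 14.2 and 22.4 CPM in KO (log2 fold change 5.53, SE 0.37, adjusted p = 0.00011). Pdgfra, a growth factor receptor that marks mesenchymal cells, had 0.173 and 0.499 CPM against 29.9 and 33.7 CPM (log2 fold change 6.60, SE 0.27, adjusted p = 7.61e-06). Col6a3, a chain of type VI collagen, had 0.296 and 0.382 CPM against 29.0 and 37.4 CPM (log2 fold change 6.60, SE 0.21, adjusted p = 1.12e-06). In all 3 genes both KO libraries lay far above both WT libraries.

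Other collagens and matrix genes rose as well. Col1a2 rose by 4.67 on the log2 scale, Col3a1 by 5.97, Col5a1 by 5.21, the basement membrane collagen Col4a1 by 4.31, the microfibril protein Fbn1 by 4.09 and the collagen chaperone Serpinh1 by 4.17. The mesenchymal transcription factors Prrx1 and Twist1 rose by 3.74 and 3.38. Timp3, an inhibitor of metalloproteinases, and Pdpn, podoplanin, did not pass the test (log2 fold changes 1.97 and -0.18). Lox, which crosslinks collagen, was the exception, with 629 and 430 CPM in WT and 31.95 and 42.02 CPM in KO (log2 fold change -3.85, SE 0.29, adjusted p = 0.00182). Lox was thus far above the other list members in WT. Lum, Thy1, Eln and Mfap5 were too low to test.

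The level of these genes also differed between replicates. WT library 2 was above WT library 1 in 35 of the 36 members tested, with a median ratio of 2.25, and the median ratio of KO library 6 to KO library 5 was 1.19. Without Lox, the other 39 members of the list summed to 59.3 and 109 CPM in WT libraries 1 and 2 and to 905 and 1113 CPM in KO libraries 5 and 6. In experiment 2 the same sums were 88.8 and 108 CPM in WT and 116 and 23.3 CPM in KO. Defining markers of mesenchymal cells (Col1a1, Pdgfra, Pdgfrb) rose with the list, while Lum and Thy1 were at or near 0 in all 4 libraries, and the part of other cell types in this result was not tested. Without KO library 6, 19 of the 36 members were higher, and Col1a2, Col3a1, Col5a2 and Col6a1 were no longer called (adjusted p between 0.0515 and 0.127), nor was Serpinh1 (0.0513). Without KO library 5, Col1a2 and Col6a1 were not called (0.0739 and 0.107). Leaving out genes that macrophages also make kept 31 members as higher.

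**Figure D3:**
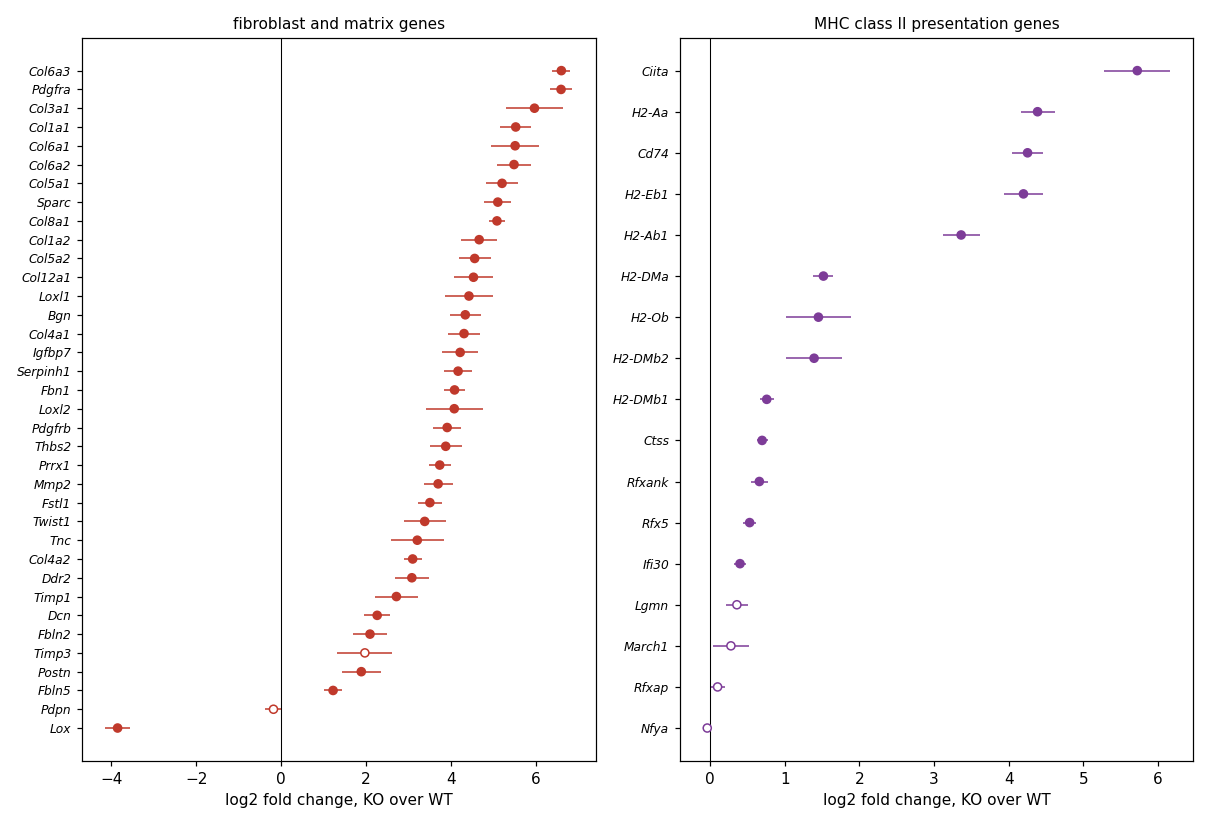
Points give the log2 fold change, KO over WT, of each tested member in experiment 1, and bars give its standard error. Filled points passed an adjusted p under 0.05 and open points did not. The left panel holds 36 fibroblast and matrix genes, with Lox at -3.85 as the only called decrease. The right panel holds 17 MHC class II presentation genes, with Ciita highest at 5.72.

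Contractile genes of smooth muscle moved with the matrix genes. Of 10 tested, 8 were higher and none was lower, with a median log2 fold change of 2.15. Tagln, the SM22 protein, had 0.345 and 0.646 CPM in WT and 7.09 and 8.49 CPM in KO (log2 fold change 3.98, SE 0.27, adjusted p = 1.31e-05). Acta2, smooth muscle actin, had 2.69 and 3.11 CPM against 10.8 and 14.4 CPM (log2 fold change 2.11, SE 0.18, adjusted p = 4.12e-05). Cnn1 and Myh11, which mark mature smooth muscle, were too low to test. Of 14 marrow reticular and adipocyte genes tested, 12 were higher, among them Cxcl12, the chemokine that holds stem cells in the marrow (0.222 and 0.528 CPM against 10.8 and 13.4 CPM), and 1 was lower. The median log2 fold change of that list was 2.60, or 2.13 with the members at 3 or fewer reads in every WT library set to their lower bound. With a filter of at least 10 counts in each library it was 0.89, with 7 members higher. Endothelial markers (3 higher of 6 tested) and osteoblast markers (4 higher of 5 tested, 3 of them at 3 or fewer reads in every WT library) had few members above the filter. Kdr, a receptor for vascular growth factors, had 19.4 and 19.1 CPM in WT and 34.8 and 32.9 CPM in KO (log2 fold change 0.80, SE 0.07, adjusted p = 5.62e-05). Vwf and Eng, which endothelial cells make, rose by 1.21 and 0.94 on the log2 scale, and the call of Vwf was lost with no filter (adjusted p = 0.069) and without KO library 5 (0.0898) or 6 (0.156). The endothelial adhesion proteins Pecam1 and Cdh5 and the secreted Egfl7 did not pass the test, with log2 fold changes of -0.96, 0.59 and 0.61. Mylk, the kinase of myosin light chain, had 1.36 and 1.20 CPM in WT and 9.07 and 11.8 CPM in KO (log2 fold change 3.01, SE 0.19, adjusted p = 9.66e-06).

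The known targets of MRTF and SRF moved in both directions. Of 26 tested, 6 were higher and 16 were lower, with a median log2 fold change of -0.58. Actb, cytoplasmic beta actin, had 10028 and 9707 CPM in WT and 4881 and 5215 CPM in KO (log2 fold change -0.98, SE 0.08, adjusted p = 3.42e-05). Flna, which crosslinks actin, had 3563 and 3057 CPM against 1289 and 1373 CPM (log2 fold change -1.33, SE 0.09, adjusted p = 1.34e-05). The immediate early gene Fos fell from 89.5 and 85.6 CPM to 24.8 and 26.7 CPM (log2 fold change -1.78, SE 0.07, adjusted p = 1.13e-06). In all 3 genes both KO libraries lay below both WT libraries. Actg1 fell by 1.39 on the log2 scale, the adhesion protein Vcl by 1.06, the integrin Itga5 by 1.13, Wdr1 by 0.79, Tpm4 by 0.77 and Srf itself by 0.42. Those that rose were Cyr61 and Ctgf, matricellular proteins of mesenchymal cells (log2 fold changes 4.86 and 4.00, with Ctgf not called without KO library 5, adjusted p = 0.073, or 6, adjusted p = 0.102), Fhl2 (5.12), Ankrd1 (2.47), Tgfb1i1 (1.72) and Egr2 (0.69). Apart from Egr2, these were at low levels in both WT libraries, with Ctgf the highest at 1.79 CPM in WT library 2.

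Genes induced by type I interferon rose together. Interferon binds its receptor and activates transcription factors, Stat2 and Irf9 among them, that bind the interferon stimulated response element (ISRE) in promoters. Promoters of 42 of the 57 interferon stimulated genes were found in the RefSeq table (GRCm38.p6, 250 bases before to 50 after each start site), and 21 of them held the ISRE core GAAANNGAAA on either strand (50%). The same core was in 3.99% of the 27025 genes with a promoter in the table. The windows below are of the 3 genes with the smallest p among the members higher in KO that hold the core, and show where it lies. Capitals mark the core or its reverse complement. They lie at chr5:120777670-120777789 (minus strand), chr19:34640730-34640849 (plus strand) and chr14:59341316-59341435 (minus strand), each shown 5′ to 3′ along the gene.
Oas3: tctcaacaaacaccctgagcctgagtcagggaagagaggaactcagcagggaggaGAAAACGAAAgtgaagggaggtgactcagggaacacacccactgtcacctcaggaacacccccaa
Ifit1: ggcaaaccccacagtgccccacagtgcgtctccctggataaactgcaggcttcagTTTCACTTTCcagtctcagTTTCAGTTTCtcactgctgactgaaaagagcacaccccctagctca
Phf11b: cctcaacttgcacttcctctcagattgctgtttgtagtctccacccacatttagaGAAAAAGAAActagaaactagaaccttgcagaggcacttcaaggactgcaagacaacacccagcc

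Of 55 interferon stimulated genes tested, 49 were higher and 2 were lower in KO of experiment 1, with a median log2 fold change of 0.97. Ifi27l2a had 69.8 and 82.1 CPM in WT and 570 and 465 CPM in KO (log2 fold change 2.76, SE 0.13, adjusted p = 2.74e-05). Irf7, the transcription factor that amplifies the interferon response, had 62.5 and 73.5 CPM against 358 and 324 CPM (log2 fold change 2.31, SE 0.10, adjusted p = 4.05e-06). Ifit2, which binds foreign RNA, had 56.6 and 58.2 CPM against 318 and 286 CPM (log2 fold change 2.38, SE 0.07, adjusted p = 4.67e-07). KO library 5 was the higher of the KO pair in each of these 3 genes.

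The antiviral effectors Mx1 and Mx2 rose by 1.85 and 2.11 on the log2 scale, and Oas3, Ifit1 and Phf11b, whose promoters are shown above, by 1.20, 1.70 and 1.31. The RNA sensors Ddx58 and Ifih1 rose by 1.01 and 0.49, and the transcription factors Stat2 and Irf9 by 1.28 and 0.50. Isg15, a ubiquitin-like modifier, rose by 0.73. Rsad2, Isg20, Phf11d and Pnpt1 did not pass the test, with log2 fold changes of 0.30, 0.27, 0.10 and -0.03. Bst2, which tethers budding virus, and Tor3a were lower (log2 fold changes -0.19 and -0.27), and the call of Bst2 was lost under 7 alternatives, with adjusted p up to 0.483. Genes of the Ifit, Oas, Ifi200 and Gbp families share sequence, and how reads that fit several of them were counted is not given in the sources used here.

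Genes for the interferons, their receptors and sensors had no common direction. Of 20 interferon ligands, receptors and sensors tested, 6 were higher and 4 were lower, with a median log2 fold change of -0.01, which turned to 0.10 with upper-quartile scaling. Tlr7, a sensor of single-stranded RNA, rose from 125 and 133 CPM to 464 and 399 CPM (log2 fold change 1.73, SE 0.09, adjusted p = 4.28e-06). The kinase Tyk2 rose by 0.66 and the kinase Ikbke fell by 1.26 on the log2 scale.

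Targets of interferon gamma rose as well. Of 19 tested, 14 were higher and 2 were lower, with a median log2 fold change of 1.23. Irgm1, a GTPase that acts on vacuoles, had 82.3 and 89.0 CPM in WT and 203 and 200.2 CPM in KO (log2 fold change 1.222, SE 0.06, adjusted p = 3.65e-06). Gbp9 had 21.6 and 24.3 CPM against 114 and 104 CPM (log2 fold change 2.24, SE 0.08, adjusted p = 1.12e-06). The transcription factor Irf1 rose by 1.03 on the log2 scale. The chemokine Cxcl9 was low, with 0.321 and 0.817 CPM in KO and 1 and 2 reads in WT. Cxcl10 was between 3.82 and 7.15 CPM in all 4 libraries and did not pass the test. Cd274, the inhibitory ligand PD-L1, was lower, from 75.9 and 91.3 CPM to 17.4 and 21.5 CPM (log2 fold change -2.11, SE 0.14, adjusted p = 8.18e-05). The ISRE core was in the promoters of 11 of 15 members found in the table (73.3%).

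Several genes of MHC class II presentation rose from very low levels. Class II genes are under the control of the coactivator Ciita, which joins factors bound to the X and Y boxes of their promoters, and the Y box is an inverted CCAAT box. The letters ATTGG or their reverse complement were in the promoters of 12 of 14 class II presentation genes found in the table (85.7%), against 41.1% of all genes and 94.1% of sterol genes. The windows of the 3 genes with the smallest p among those that hold these letters are at chr17:34287810-34287929 (minus strand), chr17:34305750-34305869 (plus strand) and chr17:34125268-34125387 (plus strand), with the letters in capitals. The first match begins at -48 from the start site in H2-Aa, -59 in H2-Eb1, which holds 2, and -198 in H2-DMa. Whether a match is a working Y box was not tested.
H2-Aa: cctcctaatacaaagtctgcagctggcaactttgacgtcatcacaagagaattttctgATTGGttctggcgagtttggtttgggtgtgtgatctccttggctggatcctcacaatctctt
H2-Eb1: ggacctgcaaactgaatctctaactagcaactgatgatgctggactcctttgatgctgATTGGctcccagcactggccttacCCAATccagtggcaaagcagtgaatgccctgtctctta
H2-DMa: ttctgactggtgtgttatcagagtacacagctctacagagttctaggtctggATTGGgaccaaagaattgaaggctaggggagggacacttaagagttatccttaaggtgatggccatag

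Of 17 MHC class II presentation genes tested, 13 were higher and none was lower, with a median log2 fold change of 0.76. Ciita (chr16:10480059-10528418) had 0.197 and 0.352 CPM in WT and 18.3 and 10.7 CPM in KO (log2 fold change 5.72, SE 0.44, adjusted p = 0.00023). H2-Aa, a class II alpha chain, had 1.97 and 1.67 CPM against 45.4 and 32.1 CPM (log2 fold change 4.39, SE 0.23, adjusted p = 4.16e-05). Cd74, the invariant chain, had 7.94 and 8.04 CPM against 179 and 128 CPM (log2 fold change 4.25, SE 0.21, adjusted p = 0.000185). In each of these genes KO library 5 was above KO library 6, and both were far above the WT libraries. H2-Eb1 and H2-Ab1 rose by 4.20 and 3.36 on the log2 scale, and H2-DMa, which loads peptides, by 1.52. The protease Ctss, at 2724 and 2614 CPM in WT, rose by 0.70. The factors that bind the X and Y boxes had smaller values, with Rfx5 and Rfxank higher by 0.53 and 0.66 and with Rfxap and Nfya at 0.10 and -0.04, not passing the test.

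**Figure D4:**
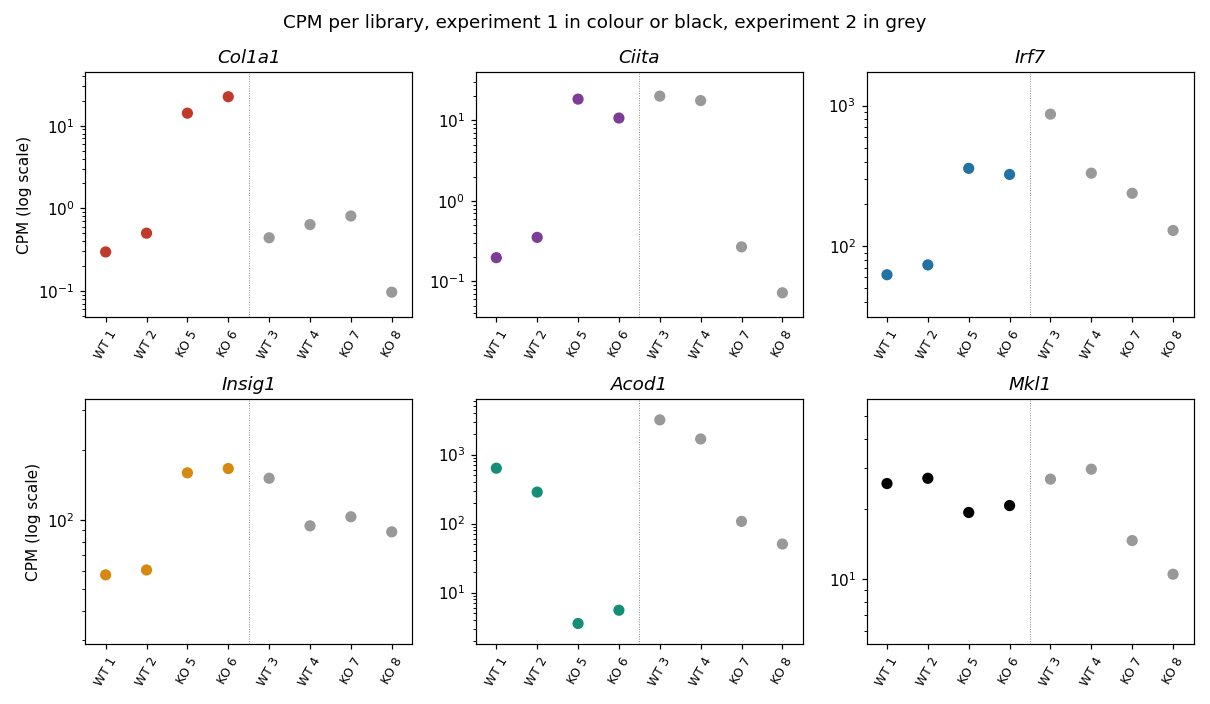
CPM of 6 genes in each library on log axes, with experiment 1 in colour or black on the left of each panel and experiment 2 in grey on the right. Col1a1, Ciita, Irf7 and Insig1 are higher in KO of experiment 1 and Acod1 and Mkl1 are lower. Ciita and Irf7 are lower in KO than in WT of experiment 2, while Mkl1 is lower in KO of both experiments, by less in experiment 1.

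MHC class I genes had a smaller median change than class II genes. Of 23 tested, 11 were higher and 2 were lower, with a median log2 fold change of 0.28. The median was 0.11 without KO library 6, and 6 members were higher in the fit of all 8 libraries. Psmb10, a subunit of the immunoproteasome, had 46.3 and 47.7 CPM in WT and 76.0 and 78.3 CPM in KO (log2 fold change 0.70, SE 0.06, adjusted p = 3.66e-05). H2-T23 rose by 0.94 on the log2 scale, and Tapbp, which bridges class I to the peptide transporter, by 0.78. B2m, the light chain of class I, was between 2877 and 3169 CPM in all 4 libraries (log2 fold change 0.07) and did not pass the test. H2-K1 missed the threshold with an adjusted p of 0.0547 (log2 fold change 0.28), and Psme2 and Erap1 were lower by 0.39 and 0.29, with Erap1 not called under upper-quartile scaling (adjusted p = 0.0506) or in the fit of all 8 libraries (0.0556). Genes of the H2-Q group share sequence, and H2-Q6 differed between KO library 5 (5.27 CPM) and KO library 6 (14.2 CPM). Costimulatory genes went the other way from antigen presentation, with none of 11 higher and 6 lower. Icam1 fell from 185 and 167 CPM to 85.9 and 95.4 CPM (log2 fold change -0.97, SE 0.07, adjusted p = 2.27e-05), and the ligands Tnfsf9 and Icosl fell by 1.10 and 0.43.

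Inflammatory genes were lower, unlike the interferon genes. Of 30 cytokines, chemokines and enzymes tested, 19 were lower and 5 were higher, with a median log2 fold change of -1.93. Tnf had 325 and 295 CPM in WT and 20.04 and 26.45 CPM in KO (log2 fold change -3.75, SE 0.14, adjusted p = 1.58e-05). Cxcl2, which attracts neutrophils, had 156 and 122 CPM against 1.90 and 2.60 CPM (log2 fold change -5.96, SE 0.20, adjusted p = 1.98e-05). Ccl3 had 491 and 456 CPM against 78.0 and 74.9 CPM (log2 fold change -2.64, SE 0.07, adjusted p = 2.82e-07). In each gene both KO libraries lay below both WT libraries.

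Acod1, which makes itaconate, had 633 and 286 CPM in WT and 3.56 and 5.54 CPM in KO (log2 fold change -6.66, SE 0.75, adjusted p = 0.0148). Without a KO library its call was lost, with an adjusted p of 0.165 without KO library 5 and 0.16 without KO library 6. The cytokine Il1b and the enzymes Ptgs2 and Nos2 fell by 3.65, 4.54 and 4.73 on the log2 scale, and the call of Ptgs2 was also lost without KO library 5 or 6 (adjusted p = 0.0559 and 0.0785). Ebi3, a subunit of IL-27 and IL-35, had 116 and 109.5 CPM in WT and 28.1 and 29.2 CPM in KO (log2 fold change -1.99, SE 0.06, adjusted p = 5.95e-07). Il6 had 1.26 and 0.94 CPM in WT and 1 read in each KO library. Ccl4, Ccl7 and Ccl2 fell by 2.39, 3.11 and 2.88, and Ccl2 and Ccl7 were not called when WT library 1 or WT library 2 was left out. Those that rose were Cxcl5 (0.345 and 0.587 CPM against 5.65 and 8.86 CPM), Ccl5, Il18, Ccl6 and Lif, with Lif not called under DESeq2 (adjusted p = 0.0938) or without KO library 5 (0.0679). Cxcl1 had 29.5 and 9.07 CPM in WT and 1.58 and 1.76 CPM in KO, and the spread between the WT libraries left its adjusted p at 0.0544.

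Targets and feedback genes of NF-kB showed the same direction, with 26 of 37 lower and 3 higher and a median log2 fold change of -0.84. Dusp1, a phosphatase that switches off p38, had 86.8 and 89.1 CPM in WT and 22.4 and 24.9 CPM in KO (log2 fold change -1.91, SE 0.07, adjusted p = 1.15e-06). Tnip1 and Zc3h12a, which restrain NF-kB signalling and degrade cytokine mRNA, fell by 1.70 and 1.81 on the log2 scale.

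Among lists with at least 8 tested members, the sterol genes had the largest share higher. The factor Srebf2 binds sterol regulatory elements of genes of cholesterol synthesis and uptake when sterols are low. Of 25 tested, 24 were higher and none was lower, with a median log2 fold change of 1.05. Hmgcs1, an early enzyme of the pathway, had 93.1 and 88.3 CPM in WT and 208 and 215 CPM in KO (log2 fold change 1.21, SE 0.06, adjusted p = 3.08e-06). Insig1, which retains the sterol sensor in the endoplasmic reticulum, had 57.7 and 60.5 CPM against 160 and 167 CPM (log2 fold change 1.45, SE 0.06, adjusted p = 1.66e-06). The decarboxylase Mvd rose by 1.51 on the log2 scale. A core of the element, TCACNCCAC on either strand, was in 1 of 17 promoters of this list found in the table (Hmgcs1) and in 1.44% of all, and it lies at chr13:119690158-119690277 (plus strand), in capitals.
Hmgcs1: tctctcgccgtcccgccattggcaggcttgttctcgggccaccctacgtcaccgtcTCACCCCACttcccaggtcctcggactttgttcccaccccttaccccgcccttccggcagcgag

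Of 20 LXR target and lipid handling genes, 14 were higher and 2 were lower, with a median log2 fold change of 0.45. Scd1 had 6.51 and 5.26 CPM in WT and 144 and 134 CPM in KO (log2 fold change 4.54, SE 0.10, adjusted p = 2.82e-07). Nr1h3, which encodes LXR alpha itself, was lower, with 49.2 and 45.7 CPM against 12.0 and 9.75 CPM (log2 fold change -2.14, SE 0.11, adjusted p = 4.22e-06). The desaturase Scd2 rose by 1.42 on the log2 scale.

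Most genes of DNA replication were lower in KO. Of 31 replication genes tested, 29 were lower and none was higher, with a median log2 fold change of -0.70. Cdc45, part of the replicative helicase, had 44.4 and 45.0 CPM in WT and 14.3 and 18.6 CPM in KO (log2 fold change -1.45, SE 0.12, adjusted p = 8.74e-05). Ccne1, which drives entry into S phase, fell by 1.61 and Rrm2, which makes deoxyribonucleotides, by 1.15 on the log2 scale. Without WT library 2, 18 of the 31 were lower. Of 25 mitosis genes, 12 were higher and 2 were lower, with a median log2 fold change of 0.14. That median lay between 0.001 without KO library 6 and 0.27 without KO library 5, at 0.21 without WT library 1 and 0.083 without WT library 2, and 7 members were higher in the fit of all 8 libraries. Cenpf, a kinetochore protein, rose from 67.9 and 57.5 CPM to 121 and 138 CPM (log2 fold change 1.03, SE 0.10, adjusted p = 0.00017). Of 19 p53 and senescence genes, 6 were higher and 9 were lower, with Cdkn1a, the p21 inhibitor, lower by 0.93 and Mdm2, which degrades p53, lower by 1.38 on the log2 scale.

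In 3 further lists, lower members outnumbered higher ones. Of 22 NRF2 and iron genes, 15 were lower and 5 were higher (median log2 fold change -0.72). Gclm, which makes glutathione, had 224 and 213 CPM in WT and 43.9 and 46.7 CPM in KO (log2 fold change -2.28, SE 0.06, adjusted p = 3.68e-07). The iron importer Tfrc fell by 2.26 on the log2 scale and the iron exporter Slc40a1 rose by 2.94. Of 31 glycolysis and hypoxia genes, 16 were lower and 6 were higher (median -0.35, or -0.23 without WT library 1 and -0.24 without KO library 5). Hk2, the first enzyme of glycolysis, had 131 and 141 CPM against 31.3 and 34.0 CPM (log2 fold change -2.07, SE 0.07, adjusted p = 8.39e-07). Of 22 genes of the unfolded protein response, 11 were lower and 4 were higher, with Atf4, a transcription factor of amino acid and endoplasmic reticulum stress, lower, at a log2 fold change of -1.75, and with Herpud1, part of the machinery that degrades misfolded proteins, at -1.82.

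Of 6 neutrophil genes tested, 3 were lower, among them Lcn2, with 50.1 and 31.7 CPM in WT and 1 and 3 reads in KO, not called without KO library 5 (adjusted p = 0.0536) or 6 (0.0765). Of 9 dendritic cell genes, 5 were higher and 2 were lower, with Fscn1, an actin bundler of mature dendritic cells, among those higher (5.13) and Irf4 rising from 1.18 and 0.998 CPM to 8.83 and 6.06 CPM (log2 fold change 2.75, SE 0.24, adjusted p = 4.92e-05). Of 13 mast cell and basophil genes, only 3 passed the filter, and all 3 were higher. Mcpt8 had 0 reads in WT and 1.15 and 1.26 CPM in KO, so it passed the filter only through KO and could not have been lower. Of 16 monocyte genes, 9 were higher and 3 were lower, with Ccr2 among those higher. Of 13 alternative activation genes, 8 were higher and 2 were lower (median log2 fold change 1.33), with the lectins Clec10a and Mgl2 rising by 2.96 and 5.34 on the log2 scale beside Mrc1. The complement genes were mixed (7 higher, 5 lower of 14), as were Fc receptor and phagocytosis genes (11 higher, 6 lower of 25), in which the receptor Axl rose from 14.7 and 16.6 CPM to 137 and 115 CPM (log2 fold change 2.99, SE 0.11, adjusted p = 3.38e-06), and lysosome genes (10 higher, 7 lower of 27), osteoclast genes (3 higher, 3 lower of 8) and lymphocyte genes (1 higher, 1 lower of 3).

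Further members of the Fc receptor, complement, lysosome and monocyte lists were called. Fcgr2b, the inhibitory Fc receptor, had 30.2 and 28.1 CPM in WT and 86.3 and 96.5 CPM in KO (log2 fold change 1.64, SE 0.08, adjusted p = 2.45e-06). Colec12, a scavenger receptor, rose by 1.44 on the log2 scale, and the complement component C4b by 3.23. C3ar1, the receptor for the anaphylatoxin C3a, had 2431 and 2302 CPM in WT and 1575 and 1402 CPM in KO (log2 fold change -0.68, SE 0.08, adjusted p = 0.000225). In the lysosome list, Hexa, a hexosaminidase, and Grn, progranulin, were at log2 fold changes of 0.76 and 0.68, both called. Cd300e, an activating receptor of monocytes, had 25.6 and 19.0 CPM in WT and 2.52 and 2.35 CPM in KO (log2 fold change -3.21, SE 0.17, adjusted p = 7.54e-06). 

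In the second batch the same contrast often gave another result. The difference of the log2 effects passed the test in 6217 of 15618 genes (39.8%), and in 5063 of them the effects had opposite signs. In experiment 2 alone, 1250 genes were lower and 1125 were higher, of 14567 tested. Its replicates lay further apart, with standard deviations of 0.507 for WT and 0.522 for KO. Between the group means, 2221 genes were more than 2-fold apart in experiment 2 and 2797 in experiment 1. The numbers of calls thus do not compare the sizes of the effects. Of the genes called in both experiments, 637 moved the same way and 925 moved in opposite ways. Interferon stimulated genes had a median of 0.97 here and of -1.67 in the second batch, and 54 of 55 passed the test of the difference. For the targets of interferon gamma the medians were 1.23 and -3.08, and for class II presentation they were 0.76 and -1.15. The fibroblast and matrix genes were at 4.08 and -0.28, the sterol genes at 1.05 and -0.52, and replication genes at -0.70 and -0.04. Inflammatory genes were lower in both, at -1.93 and -2.72, and Tnf fell in each (log2 effects -3.75 and -3.59, adjusted p of the difference 0.605). Actb was at -0.98 and -1.07 in the 2 experiments (adjusted p of the difference 0.689), which does not show that the effects are equal.

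**Figure D5:**
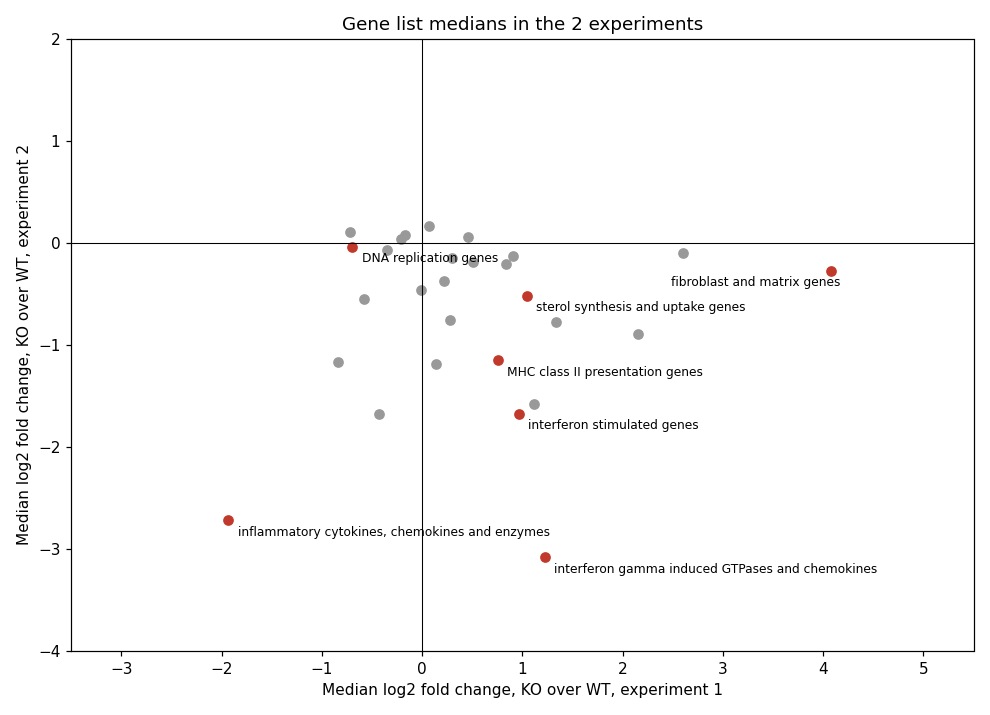
Each point is a gene list with at least 8 members tested, with its median log2 fold change, KO over WT, in experiment 1 on the horizontal axis and in experiment 2 on the vertical axis. Named lists are in red and the others in grey. The labelled lists of interferon stimulated genes, interferon gamma targets, MHC class II and sterol genes lie right of 0 and below 0, and inflammatory genes lie left of 0 and below 0.

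Replicates differed in many genes, with 486 at least 2-fold apart between the WT libraries and 277 between the KO libraries. Among genes whose group mean reached a log2 CPM of 3, the KO libraries lay furthest apart in Ctse, an aspartic protease, with 55.3 and 4.23 CPM, and its adjusted p was 0.206. Acap1, Adam19, Atp6v0c and H2-Q6 followed, and of these Adam19 was called in experiment 1 (log2 fold change 3.34, SE 0.82, adjusted p = 0.044). The call of Adam19 was lost with limma-voom (adjusted p = 0.151), with no filter (0.193) and without WT library 1 (0.227) or 2 (0.252). Under the same limit on level, the WT libraries lay furthest apart in Wdfy1, with 60.7 and 13.5 CPM, followed by Cxcl1, Raver2, Fn1 and Lsp1. Fn1, the matrix protein fibronectin, had 5.65 and 13.5 CPM in WT and 36.1 and 33.6 CPM in KO, and missed the threshold with an adjusted p of 0.0587. Raver2 was called, with 14.7 and 35.9 CPM in WT and 1 read in each KO library, and its call was lost with limma-voom (adjusted p = 0.132), with no filter (0.061) and without KO library 5 (0.1995) or 6 (0.211). Ddx3y and Eif2s3y, genes of the Y chromosome, were lower in KO (log2 fold changes -0.70 and -0.56) while Kdm5d did not pass the test (log2 fold change -0.09), and Ddx3y was not called without WT library 2 (adjusted p = 0.0603).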

How the data were processed

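Bulk RNA-seq libraries were made with a stranded mRNA kit. The submitters' processing notes name STAR 2.7.0f, featureCounts of Subread 1.6.4, DESeq2 1.22.1 and GRCm38. The annotation and the strand setting are not given in the sources used here. The authors deposited whole-number counts per gene and normalized counts, a signal, which are these counts divided by 1 factor per library. Only the counts were tested. Some genes of the lists are counted but not reported here by name.

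Experiment 1 (2 WT, 2 KO) was fitted alone with edgeR 4.0.16 in R 4.3.3: filterByExpr, TMM, robust quasi-likelihood F test, Benjamini-Hochberg adjustment, threshold 0.05. SE is the log2 fold change over the square root of F. The difference between experiments was a contrast of 4 group means over all 8 libraries. CPM values use TMM factors over 8 libraries. A fold against a group with 3 or fewer reads in every library is not printed. Fold changes use a prior count, so they understate low genes. Gene lists were counted, not tested. Members and lists were chosen with earlier results of these data known. Genes were named by rule: Mkl1, the 10 largest changes each way whose mean log2 CPM was 3 or more, the 5 most abundant changed at least 2-fold each way, the 5 furthest apart between replicates, the 3 smallest p per list, and any member of the fibroblast, smooth muscle, interferon, MHC, inflammatory and MRTF lists; cell type markers, Apoe and the other endothelial genes tested were added. The 10 largest changes each way were taken only from called genes whose KO and WT libraries did not overlap. Alternatives were DESeq2 1.42.0, limma-voom 3.58.1, other scalings, filters and thresholds, and each library left out. Fits were tested on simulated data with 100 genes changed 2-fold and 100 changed 4-fold. The edgeR fit of experiment 1 recovered 93 and 99 of them, and the test of the difference recovered 38 and 94. Counting noise is small at 33977799 to 41584540 counts per library, and 3 counts equal 0.0724 to 0.0881 CPM. Figures used matplotlib 3.10.9.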

Additional observations from a re-analysis of the deposited data

Results flagged for a closer look

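The results here were picked because the KO effect of experiment 1 differed from that of experiment 2 in a test of the difference (edgeR contrast of 4 groups, adjusted p under 0.05). Across all genes 6217 of 15618 did so (39.8%).

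By list, the difference was called in 31 of 36 fibroblast and matrix genes, 54 of 55 interferon stimulated genes, 21 of 21 targets of interferon gamma, 14 of 18 MHC class II presentation genes, 20 of 32 inflammatory cytokines, chemokines and enzymes, 31 of 37 targets of NF-kB and 22 of 25 sterol synthesis and uptake genes. It was called in 15 of 31 DNA replication genes, a share near that over all genes.

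Among the genes with the largest decreases, the log2 effect in experiment 1 minus that in experiment 2 was -18.49 for Slc13a3, -13.72 for Fpr1, -13.16 for Ptprm, -12.24 for Cd55, -7.81 for Ceacam19, -6.61 for Siglece, -5.99 for Saa3, -5.25 for Itgal and -1.38 for Cxcl2. Among those with the largest increases it was 10.91 for H2-Aa, 9.36 for Ccr2, 8.73 for Ly6a, 6.13 for Col12a1, 6.00 for Thbs1, 5.96 for Sparc, 5.21 for Col6a1, 5.11 for Scd1, 4.95 for Col1a2 and 4.67 for Col5a2. Among abundant genes it was -3.12 for Cd36, -3.03 for Adgre1, -1.23 for Tmsb4x, -1.09 for Lpl and -1.06 for Flna, and 2.56 for Spp1, 2.24 for C1qb, 1.99 for Mrc1, 1.63 for C1qc and 1.20 for Sepp1. Cxcl2 moved the same way in both experiments, by different amounts.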

How the results depend on the processing

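The number of genes lower in KO than WT of experiment 1 (4248) and the number of genes higher in KO than WT of experiment 1 (4225) stayed within 1.5 times under DESeq2 (3803 and 3319), limma-voom, 2 other scalings (with upper-quartile scaling, 3248 and 5255), 2 other filters, a threshold of 0.01 and the fit of all 8 libraries. A 2-fold minimum left 881 and 1832, and glmTreat against 1.5-fold left 1160 and 1703. Leaving out 1 library at a time gave 3507 to 3957 lower and 3386 to 3679 higher. The number of genes whose KO effect differs between the experiments was 4184 to 6678 in such fits. For fibroblast and matrix genes, members higher were 19 to 34 (19 without KO library 6), and for DNA replication genes, members lower were 18 to 31 (18 without WT library 2). With 1 library left in a group, its spread was taken from the other group.

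The osteoclast genes, median log2 fold change, turned to -0.39 with no filter and to -0.28 in the fit of all 8 libraries, and the dendritic cell genes, median log2 fold change, to -0.13 and -0.15. The interferon ligands, receptors and sensors, median log2 fold change, turned to 0.10 with upper-quartile scaling and to 0.019 with at least 10 counts, and lay between -0.023 and 0.00059 with 1 library left out. The neutrophil genes, median log2 fold change, turned to 0.053 with at least 10 counts. The causes were not tested. Of the named genes and list members refitted, 16 turned sign under some alternative, and none of these was called in the fit reported here. Among those given above they were Cxcl10, Kdm5d, Nfya, Pdpn, Phf11d, Pnpt1 and Wdfy1. The osteoclast median was 0.028 without WT library 2. With at least 10 counts in each library, 1 osteoblast, 5 monocyte and 5 alternative activation genes were higher, against 4, 9 and 8, and 1 neutrophil gene was lower, against 3. In the fit of all 8 libraries, Ccl5, Ccl6, Ctss, Egr2, Erap1, Ifih1, Kdr, Lif, Psme2, Scd2 and Tor3a were not called. No paired analysis was possible because the labels give no pairing of WT with KO libraries.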
